A study of Homo sapiens with 58 samples.

Results

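The regulatory elements (REs) around the genes of the other SOXE factors, SOX10 and SOX8, and around the neural crest and glial genes ERBB3, S100B and FOXD3 were examined in cranial neural crest cells (CNCCs) in which the level of SOX9 was lowered in steps. An RE was taken as a member if its midpoint lay inside one of these 5 genes or within 100 kb of an annotated start site. This gave 113 of the 151457 REs in the counts table, with 26 at SOX8, 35 at SOX10, 29 at ERBB3, 10 at S100B and 13 at FOXD3. The genes were chosen by earlier values of the same data, the changes of accessibility between 500 and 0 nM dTAGV-1 at 48 h in their neighbourhood. Values of that comparison are therefore given as a description. No p-value is printed for it, and "called", "lower" and "higher" there only name the side of the threshold on which the fit put an RE.

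The CNCCs had been derived in culture from the human embryonic stem cell line H9. ATAC-seq, which measures chromatin accessibility, uses a transposase that cuts open chromatin and leaves sequencing adapters there. In SOX9-tagged cells both SOX9 alleles carry FKBP12-F36V with the fluorescent protein mNeonGreen and the V5 epitope at the carboxy terminus, and the small molecule dTAGV-1 targets the tagged protein for degradation. S9CC13 and S9CC47 are separate clones of these cells, and wild-type (WT) H9 cells carry no tag. A total of 42 SOX9-tagged samples was treated for 48 h with 0, 0.5, 1.6, 5, 16 or 500 nM dTAGV-1, with 7 samples per concentration (4 of S9CC13, 3 of S9CC47). The labels give these concentrations SOX9 levels of 100, 77.9, 51.7, 25.8, 8.14 and 0.95% of the untreated level. Another 4 samples were WT cells after 48 h at 0 or 500 nM. The remaining 12 came from a time course of both genotypes, with vehicle for 24 h, 500 nM for 24 h, or 500 nM for only the last 3 h, and 2 samples per group. For the SOX9-tagged samples of R5 in the time course the titles name S9CC13 but the column names S9CC47, so their clone is uncertain and was not used. Replicates are separate differentiations or clones, so all share the H9 line and the SOX9-tagged ones stem from the same pair of edited clones. No RNA or protein of the 5 genes was measured here, and in bulk cells fewer cells with an open RE and less opening per cell cannot be told apart.

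The depth per sample, as the sum over all REs in units of M counts (M, mega), was lowest at 22.9, with a median of 45.6 and a maximum of 81. Levels are given as CPM, the counts scaled to a common total by TMM normalization, and the median RE of the table stood at 2.51 CPM, with the 90th percentile at 16.6. Promoters of the neural crest and mesenchyme markers TFAP2A, TWIST1, NR2F1, PRRX1, ALX4, MSX1 and SNAI2 had 15.7 to 94.3 CPM without dTAGV-1. Among the stem cell markers NANOG had no promoter RE and POU5F1 stood at 1.28 CPM, whereas LIN28A was at 75.6 and DPPA4 at 12.4. The glial gene CDH19 had no promoter RE, and the promoters of GFAP and MBP were at 4.0 and 2.21 CPM without dTAGV-1 and at 1.36 and 2.05 at 500 nM. The label of CNCCs was thus met by its markers, while the promoters of these glial genes were low or had no RE.

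SOX8, SOX9 and SOX10 form the SOXE group of transcription factors, which bind DNA through a closely similar HMG box and can sit as dimers on pairs of binding sites that face each other. In the neural crest SOX9 is known for the skeletogenic lineage and SOX10 for glia and melanocytes, with SOX8 acting alongside both. ERBB3 is the neuregulin receptor of crest and Schwann cell precursors, S100B is a calcium-binding protein used as a glial marker, and FOXD3 is a forkhead factor of the early crest that favours glial over mesenchymal fates. These loci carry their regulatory DNA partly outside the genes: the windows also held start sites of other coding genes, 5 at SOX10 (among them POLR2F and SLC16A8), 2 at SOX8 (LMF1 and SSTR5), 11 at ERBB3 and 1 each at S100B (PRMT2) and FOXD3 (ALG6). Which gene an RE acts on was not measured, and an RE is named below only by a gene and the signed distance of its midpoint from that gene's canonical start, with minus for upstream.

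The sequences of the REs that changed most are shown first, because SOX factors are known to bind DNA through short motifs. The motifs searched on both strands were ACAAT and ACAAAG, which read ATTGT and CTTTGT on the other strand. A facing pair was a motif followed by a reverse-strand motif at a gap of 0 to 10 bases between the fifth letters of the motifs. The opposite order, with the gap between their first letters, is called everted. Of all 151457 REs, 68.7% held a motif, 1.28% a facing pair and 1.13% an everted pair. Of the 113 member REs, 65 held a motif (57.5%), 2 a facing pair and 2 an everted pair. Among the 14 member REs that were lower at 3 h (below), 13 held a motif and 2 a facing pair, against 52 and 0 of the other 99. REs differ in length, and for the commonest span of 501 bp (123778 REs) the shares over the whole table were 66.7, 1.2 and 1.07%.

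Stretches of 8 of these REs follow, on the plus strand of hg38 and read 5′ to 3′, with the motifs in capitals. The SOX8 -9.0 kb RE at chr16:972567-973067 held a facing pair with a gap of 5 bases, ACAAT to ATTGT, and upstream of it a second pair whose first motif was ACAAG, a form treated below (chr16:972636-972791). In SOX10 +85.6 kb the facing pair had a gap of 6 bases (chr22:37899006-37899101), and in S100B -16.7 kb an everted pair had a gap of 8 bases (chr21:46621515-46621613).

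SOX8 -9.0 kb: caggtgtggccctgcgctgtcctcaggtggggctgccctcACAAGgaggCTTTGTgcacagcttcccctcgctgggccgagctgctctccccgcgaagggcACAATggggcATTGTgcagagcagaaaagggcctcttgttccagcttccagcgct
SOX10 +85.6 kb: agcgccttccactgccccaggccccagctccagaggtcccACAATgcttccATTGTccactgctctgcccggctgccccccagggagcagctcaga
S100B -16.7 kb: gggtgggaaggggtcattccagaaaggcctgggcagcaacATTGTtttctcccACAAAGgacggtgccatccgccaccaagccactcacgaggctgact

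Some strongly changed REs had no such pair but a motif facing ACAAG. This form was added after the sequences had been seen and is only a description. It occurred at a gap of 0 to 10 bases in 1.65% of all REs and in 4 of the 113 member REs. SOX10 +16.4 kb held it with a gap of 2 bases (chr22:37968022-37968051, in an untranslated exon of a POLR2F isoform), and SOX8 -68.9 kb with a gap of 7 bases (chr16:912788-912884). The other 2 were SOX8 -9.0 kb above and S100B +1.7 kb with a gap of 6 bases.

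SOX10 +16.4 kb: agcagacagACAAGtCTTTGTgcccaggga
SOX8 -68.9 kb: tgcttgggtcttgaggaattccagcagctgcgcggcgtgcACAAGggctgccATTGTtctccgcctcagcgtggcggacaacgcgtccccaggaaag

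In S100B -17.5 kb (chr21:46622448-46622533), ERBB3 +1.6 kb (chr12:56081720-56081805) and FOXD3 -44.8 kb (chr1:63277765-63277849) single motifs were found, one of which is shown for each with its flanks. SOX10 -14.2 kb held none of these motifs, although it is one of the REs that fell by more than 1 on the log2 scale.

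S100B -17.5 kb: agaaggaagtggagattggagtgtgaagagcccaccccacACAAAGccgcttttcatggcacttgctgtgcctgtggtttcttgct
ERBB3 +1.6 kb: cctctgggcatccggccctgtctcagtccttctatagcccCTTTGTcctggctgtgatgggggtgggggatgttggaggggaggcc
FOXD3 -44.8 kb: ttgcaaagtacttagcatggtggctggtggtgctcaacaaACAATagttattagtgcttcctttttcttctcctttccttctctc

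At 500 nM and 48 h, the comparison from which the genes were chosen, the edgeR fit put 25 of the 113 REs below 0 nM and 5 above at its adjusted threshold of 0.05. Over all REs the percentages were 13.9% and 10.2%, and nothing is read from the comparison of these shares. The lower REs numbered 9 at SOX10, 6 at SOX8, 5 of 10 at S100B, 3 at ERBB3 and 2 at FOXD3. The median log2 fold change was -0.11 over the members and 0.02 over all REs, so that most member REs moved little. The 83 REs that were not called had log2 fold changes between -0.50 and 0.33. A fall of at least 1 on the log2 scale was reached by 10 member REs, and by 3.88% of all REs. These 10, and the most strongly lowered RE at FOXD3, are the 11 lead REs described in detail. In all 11 every sample at 500 nM was below every sample at 0 nM, but these REs were picked by their fall in the same samples. The share of all REs that separate in this way was not computed, and nothing is read from it. Of the 11, 1 lay within 1 kb of a start of the member gene and 3 within 1 kb of any annotated start. At the edge of the SOX10 window, SOX10 -99.9 kb just inside had a log2 fold change of -1.88 ± 0.13 (SE), and the next RE outside, at -113.4 kb, 0.19 ± 0.11. The outermost REs inside the other windows ranged from -0.64 (FOXD3 -45.8 kb) to 0.33 (SOX8 +99.8 kb), and the nearest outside from -0.36 (FOXD3 -169.8 kb) to 0.33 (SOX8 -139.4 kb).

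**Figure D1:**
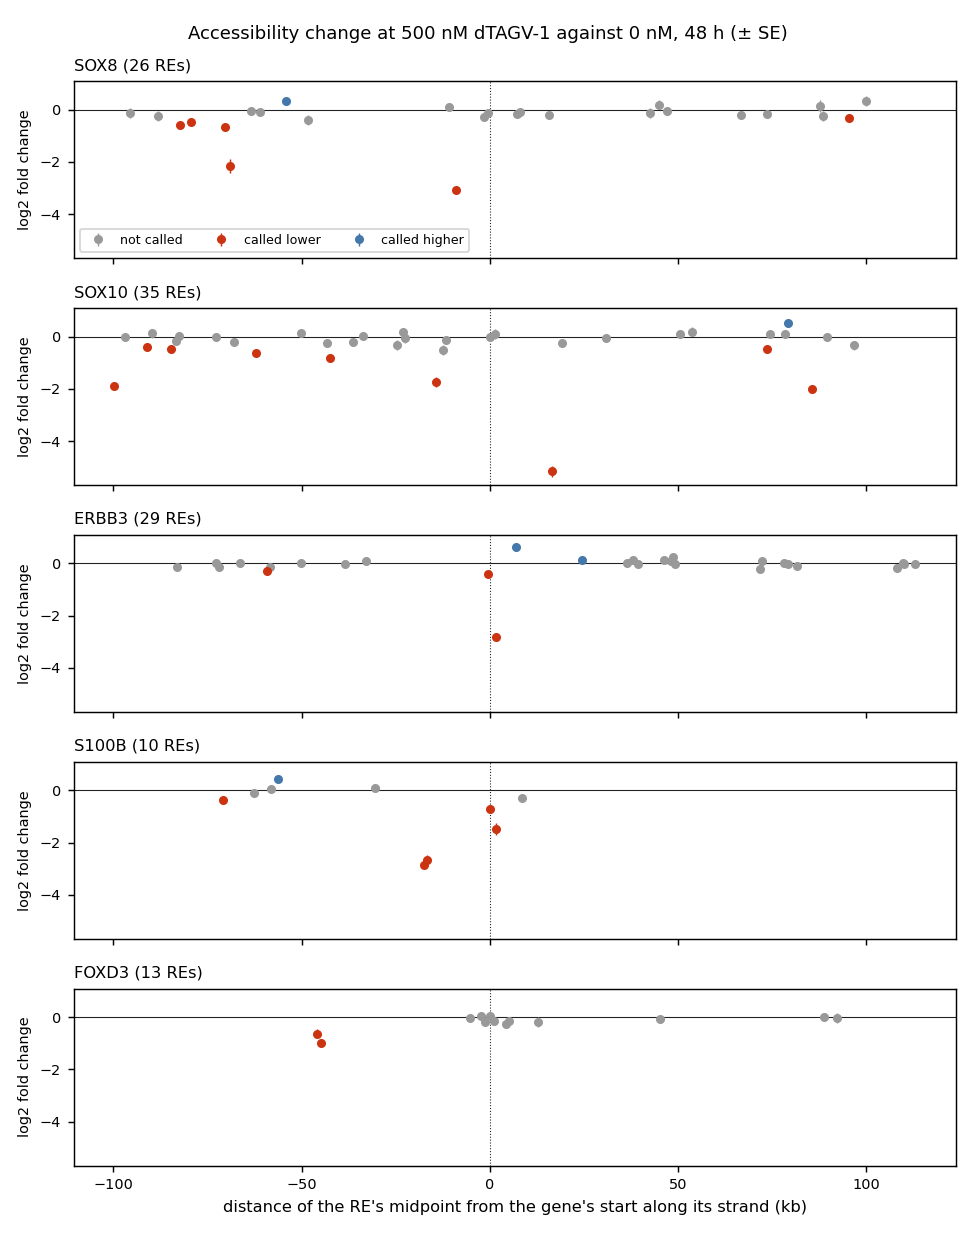
Log2 fold change (± SE) at 500 nM against 0 nM (48 h, 7 samples each) of all 113 member REs against the distance of the RE from the canonical start in kb, in a panel per gene. Red points were called lower, blue points higher and grey points were not called. The lowest point is SOX10 +16.4 kb at -5.16, and most of the other points lie near 0.

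SOX10 +16.4 kb (chr22:37967856-37968356) lies downstream of the SOX10 gene in POLR2F, within 1 kb of a start site of one of its isoforms. Without dTAGV-1 its level ran from 3.57 to 17.1 CPM with a median of 15.2, and at 500 nM from 0.145 to 0.477 CPM with a median of 0.315. The 0 nM samples were uneven, with 7.83, 4.97 and 3.57 CPM in S9CC13 replicates R10, R13 and R14 and 15.2 to 17.1 CPM in the other 4, among them S9CC13 R6. Every replicate was lower at 500 nM. The log2 fold change was -5.16 ± 0.22 (SE, n = 7), the fourth most negative of the whole table, and the mean at 500 nM was 2.8% of that at 0 nM. At 16, 5 and 1.6 nM the log2 fold change was -4.32, -2.46 and -0.65.

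The other SOX10 lead REs were weaker and far apart. SOX10 -14.2 kb (chr22:37998518-37999018), upstream of the gene and in a POLR2F intron, went from 1.47 to 2.04 CPM (median 1.71) without dTAGV-1 to 0.339 to 0.682 CPM (median 0.538) at 500 nM, a log2 fold change of -1.73 ± 0.19. SOX10 +85.6 kb (chr22:37898740-37899240), in no annotated gene, had 1.58 to 4.1 CPM (median 3.05) and then 0.511 to 1.19 CPM (median 0.704), a change of -2.01 ± 0.16. SOX10 -99.9 kb (chr22:38084051-38084835) covers the start region of SLC16A8, a monocarboxylate transporter gene. Its levels were 6.57 to 17.8 CPM (median 10.5) and 1.67 to 4.99 CPM (median 2.91), a change of -1.88 ± 0.13. In between, SOX10 -42.4 kb and -62.0 kb were called with -0.83 ± 0.14 and -0.63 ± 0.16, and their groups overlapped. SOX10 +79.2 kb was called higher with 0.51 ± 0.15, but one replicate, S9CC13 R10 with 8.18 CPM, stood above the others, of which the next was at 4.17, and the call was lost without it.

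SOX8 -9.0 kb (chr16:972567-973067) lies upstream of SOX8, inside LMF1 and 1832 bp from a start site of that gene, which encodes a lipase maturation factor. Its levels were 13.6 to 29.0 CPM (median 18.4) without dTAGV-1 and 1.71 to 3.07 CPM (median 2.54) at 500 nM. The groups were far apart, with a log2 fold change of -3.08 ± 0.13 (SE, n = 7) and 11.7% of the mean left. SOX8 -68.9 kb (chr16:912575-913075), in an LMF1 intron, fell from 0.83 to 4.01 CPM (median 1.8) to 0.364 to 0.688 CPM (median 0.457), a change of -2.16 ± 0.26. Near it, SOX8 -70.4, -79.3 and -82.4 kb were called lower with -0.68, -0.46 and -0.60, and SOX8 -54.2 kb was called higher with 0.35 ± 0.07. All 7 replicates rose at SOX8 -54.2 kb, though the groups overlapped (9.21 to 26.7 CPM against 11.1 to 36.6 CPM).

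ERBB3 +1.6 kb (chr12:56081524-56082024) lies in an intron close to the start of the receptor gene. It stood at 8.91 to 21.8 CPM (median 13.3) without dTAGV-1 and at 1.63 to 3.12 CPM (median 2.01) at 500 nM. The log2 fold change was -2.82 ± 0.14 and 14.1% of the mean was left, in a window where only 3 of 29 REs were lower. The promoter RE beside it, ERBB3 -0.6 kb, had 31.7 to 53.3 CPM and then 21.6 to 34.3 CPM, with overlapping groups and -0.39 ± 0.07. ERBB3 +7.0 kb, at an alternative start, was called higher with 0.64 ± 0.15.

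At S100B a pair of neighbouring REs upstream of the gene, in no annotated gene, fell together. S100B -17.5 kb (chr21:46622139-46623084) went from 13.2 to 28.0 CPM (median 23.2) to 2.16 to 3.84 CPM (median 2.6), a log2 fold change of -2.87 ± 0.12. S100B -16.7 kb (chr21:46621506-46622006) went from 1.73 to 5.8 CPM (median 4.12) to 0.431 to 0.761 CPM (median 0.601), a change of -2.65 ± 0.18. Both promoter REs of S100B were also lower. S100B +1.7 kb (chr21:46603143-46603643) changed by -1.49 ± 0.23 and S100B -0.1 kb (chr21:46604950-46605450) by -0.73 ± 0.13, and neither RE had overlapping groups (2.36 to 3.99 CPM against 1.4 to 2.28 CPM at S100B -0.1 kb).

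At FOXD3 the changes were small. FOXD3 -44.8 kb (chr1:63277251-63278234), inside the non-coding gene LINC00466, had 3.26 to 5.67 CPM (median 4.01) without dTAGV-1 and 1.51 to 2.54 CPM (median 2.25) at 500 nM, a log2 fold change of -0.98 ± 0.13. FOXD3 -45.8 kb beside it changed by -0.64 ± 0.17 with overlapping groups. The promoter REs FOXD3 -0.1 kb and +1.0 kb were not called, with 0.04 ± 0.12 and -0.15 ± 0.12.

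The promoters of the factors themselves were among the REs that were not called. Of the 9 REs within 1 kb of a start of a member gene, 3 were lower and 1 higher at 500 nM, where 13.9% and 10.2% of all REs were. The SOX10 promoter RE, SOX10 +0.0 kb, had 1.11 to 2.37 CPM (median 1.47) without dTAGV-1 and 0.817 to 2.69 CPM (median 1.52) at 500 nM, a log2 fold change of -0.01 ± 0.15. The second SOX10 start, at +1.4 kb, had 0.10 ± 0.18. The SOX8 promoter RE, SOX8 -0.6 kb, had 8.82 to 26.7 CPM (median 11.7) and 9.85 to 22.7 CPM (median 12.3), a change of -0.13 ± 0.09. The SOX8 RE was nevertheless called lower at 16 nM, with -0.39. These concentrations were not compared with each other, and at 500 nM S9CC13 R10 stood above the other samples (22.7 CPM, next 15.2). No order of the concentrations is therefore drawn at this promoter.

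**Figure D2:**
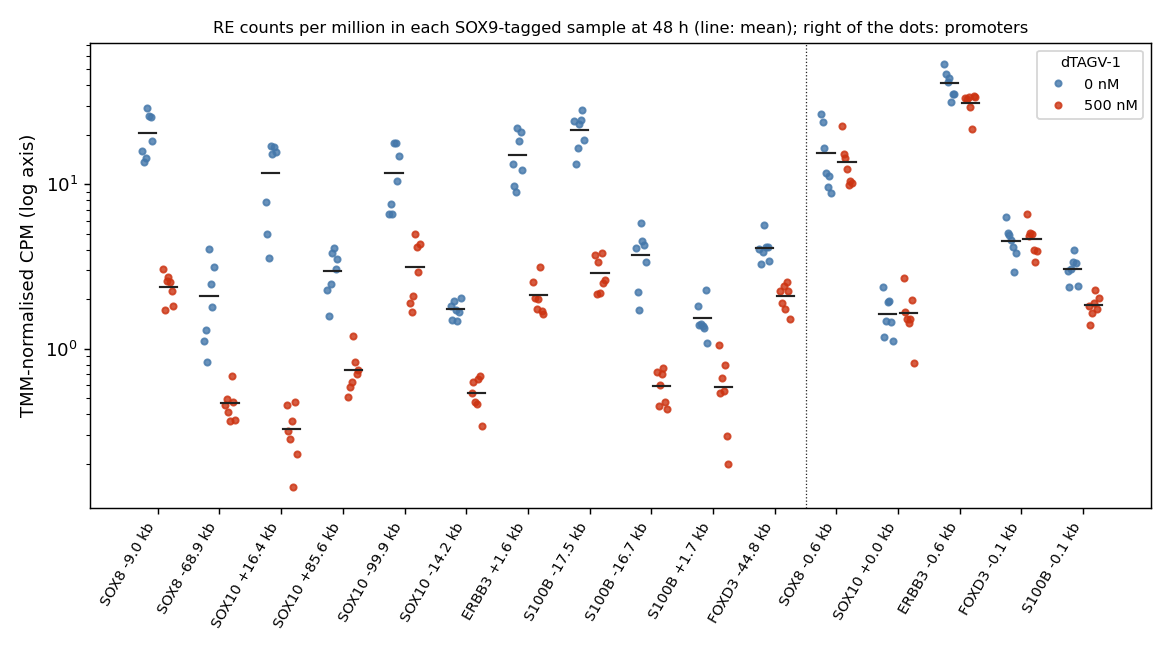
TMM-normalised CPM (logarithmic axis) of each of the 7 SOX9-tagged samples at 0 nM (blue) and 500 nM (red) after 48 h, with a line at each mean, for the 11 lead REs and, right of the dotted line, 5 promoter REs. At SOX10 +16.4 kb all samples at 500 nM lie at or below 0.477 CPM, and at the SOX10 promoter RE, SOX10 +0.0 kb, the groups overlap.

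The dose series asked how far SOX9 has to fall before these REs lose accessibility. Each concentration was compared with the same 0 nM samples, which the comparison at 500 nM also used, so the values are set side by side only. At 16 nM 23 of the 113 REs were lower and 2 higher (9.12% and 7.12% of all REs), at 5 nM 13 were lower and 0 higher (4.24% and 1.08%), and at 1.6 nM 3 were lower and 0 higher (0.0383% and 0%). At 0.5 nM 0 were called by edgeR and 0 by DESeq2, and 0% of all REs, while 8 of the 113 (7.08%, against 3.45% of all REs) had an unadjusted p-value under 0.05. All 11 lead REs were lower at both 16 and 5 nM. At 5 nM the call of SOX8 -68.9 kb was lost without S9CC47 R5 or S9CC47 R8 and that of S100B +1.7 kb without S9CC13 R10 or S9CC47 R5. Without the batch term these 2, SOX10 +85.6 kb and SOX10 -99.9 kb lost theirs. The 13 member calls at 5 nM became 20 without S9CC47 R6. The 3 REs lower at 1.6 nM, where 51.7% of SOX9 is left, were SOX8 -9.0 kb (-0.43 ± 0.07), SOX10 +16.4 kb (-0.65 ± 0.11) and S100B -17.5 kb (-0.55 ± 0.09). They are lead REs of the comparison at 500 nM, which used the same 0 nM samples, so no p-value is printed for them. Blocking on the replicate rather than the batch gave 6 lower REs, and without S9CC13 R10, S9CC13 R13, S9CC47 R5 or S9CC47 R8 there were 0.

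Neighbouring concentrations were also compared directly, without the 0 nM samples. Between 1.6 and 5 nM 6 member REs fell and 0 rose (1.71% and 0.0588% of all REs). They were SOX10 +16.4 kb (-1.79 ± 0.15, edgeR adjusted p = 4e-05), SOX8 -9.0 kb (-1.26 ± 0.09, adjusted p = 1.4e-05), S100B -16.7 kb (-1.12 ± 0.14), S100B -17.5 kb (-1.05 ± 0.11), ERBB3 +1.6 kb (-0.94 ± 0.09) and SOX10 -99.9 kb (-0.59 ± 0.12). The last of these was lost in 6 of 12 alternatives. Between 5 and 16 nM 4 fell and 0 rose (0.869% and 0.0905% of all REs), namely SOX10 +16.4 kb (-1.81 ± 0.23, edgeR adjusted p = 0.0028), SOX8 -9.0 kb (-1.12 ± 0.19), ERBB3 +1.6 kb (-1.05 ± 0.15) and S100B -17.5 kb (-0.71 ± 0.10). The replicate block gave 7 calls here. Leaving out S9CC47 R6 gave 13 calls in the first step and 9 in the second. SOX10, SOX8, ERBB3 and S100B thus each had an RE called in both steps, and FOXD3 had none. The share of all REs called in both steps was not computed. Without the batch term the call of ERBB3 +1.6 kb in the first step was lost, as was that of S100B -17.5 kb in the second. The calls of SOX10 +16.4 kb held in 12 of 12 alternatives in each step. The call of SOX8 -9.0 kb in the second step was lost without S9CC47 R5, without S9CC47 R8 and without the batch term (largest edgeR adjusted p = 0.12).

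Across the series SOX10 +16.4 kb had median levels of 15.2, 12.9, 7.95, 1.97, 0.514 and 0.315 CPM from 0 to 500 nM. For SOX8 -9.0 kb these medians were 18.4, 17.9, 12.6, 6.05, 3.09 and 2.54 CPM, for ERBB3 +1.6 kb 13.3, 11.6, 9.11, 4.59, 2.78 and 2.01 CPM, and for S100B -17.5 kb 23.2, 18.1, 12.8, 7.02, 4.06 and 2.6 CPM. Medians in all 4 REs thus went down at every step. As a share of the full change between 0 and 500 nM, SOX10 +16.4 kb had lost 34.0 ± 18.1% (SD, n = 7) at 1.6 nM, 84.3 ± 5.93% at 5 nM and 97.0 ± 2.98% at 16 nM. The shares at 1.6 and 5 nM were 28.7 ± 10.2% and 78.7 ± 5.32% for SOX8 -9.0 kb, 28.6 ± 15.1% and 72.1 ± 7.26% for ERBB3 +1.6 kb, and 36.4 ± 9.96% and 77.6 ± 6.86% for S100B -17.5 kb. These shares overlap within their SDs, and no order among the 4 REs is drawn from them.

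A Hill curve of the CPM against the labels' SOX9 level gave for each RE the ED50, the SOX9 level at the midpoint of the curve. Over the 10 REs with a fall of at least 1 the median ED50 was 40% of the untreated SOX9 level, from 24.9% for SOX10 +85.6 kb to 45.3% for SOX10 -14.2 kb. SOX10 +16.4 kb had 45.1% (43.5 to 46.2% when each replicate was left out in turn) with a Hill exponent of 3.56. SOX8 -9.0 kb had 39.2% (38.2 to 40.3%), ERBB3 +1.6 kb 37.6% (35.9 to 38.8%), S100B -17.5 kb 41.7% (41.0 to 42.7%) and SOX10 -99.9 kb 26.5% (25.5 to 27.9%). On the scale of log2(CPM + 0.5) the median was 27.9%, since on that scale the fall from a low to a very low level counts for more, so the ED50 is a property of the scale as well as of the RE. SOX10 +85.6 kb and -99.9 kb had the lowest values on both scales (16% and 16.6% on the log2 scale).

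**Figure D3:**
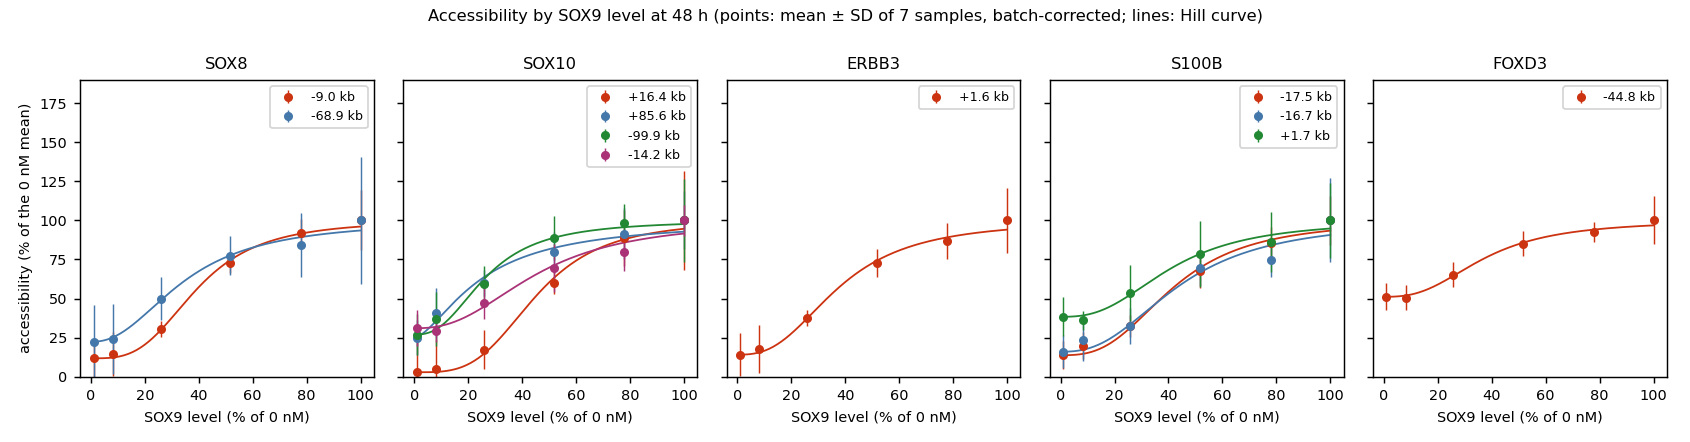
Batch-corrected CPM in percent of the 0 nM mean against the SOX9 level given by the labels, in percent of the level at 0 nM, for the 11 lead REs in a panel per gene. Points are means with SD over 7 samples and lines are Hill curves, of which that of SOX10 +16.4 kb ends lowest, at 2.8%, and that of FOXD3 -44.8 kb highest.

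The time course asked which REs lose accessibility within hours, and its samples took no part in the choice of the genes. Its batch R5 is, however, also a batch of the 48 h samples that did, so it is not fully independent of that choice. At 3 h 14 of the 113 REs were lower and 3 higher than vehicle in SOX9-tagged cells, against 7.43% and 0.912% of all REs, or 8.34% in either direction. At 24 h 20 were lower and 6 higher (9.93% and 4.7% of all REs, 14.6% in either direction). The vehicle samples were shared by both times. The lead REs made up most of the early falls, with 10 of 11 lower at 3 h and 11 of 11 at 24 h. They had been picked by their fall at 48 h. How many of all REs with a like fall were lower at 3 h or 24 h was not computed, so no trait of these loci is read from it. The median log2 fold change of all members was 0.04 at 3 h and -0.02 at 24 h, against 0.02 and 0.01 over all REs. Without the block for batch, 0 member REs were called at 3 h and 2 at 24 h. Without SOX9-tagged R4 there were 11 calls at each time, and without R5 13 at each.

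SOX10 +16.4 kb had 32.1 and 17.5 CPM with vehicle (R4 and R5), 1.31 and 1.43 CPM after 3 h, and 0.605 and 0.7 CPM after 24 h. Both differentiations were thus far below vehicle at 3 h, with a change of -4.17 ± 0.20 on the log2 scale (edgeR adjusted p = 1.3e-10), and lower still at 24 h with -5.28 ± 0.22. Only 0.0066% of all REs had a change at 3 h as negative as this one. SOX8 -9.0 kb went from 30.4 and 21.2 CPM to 2.4 and 2.65 CPM at 3 h and 1.89 and 2.03 CPM at 24 h. Its changes were -3.39 ± 0.16 (edgeR adjusted p = 1e-10) and -3.77 ± 0.16. SOX8 -68.9 kb, from 3.75 and 1.65 CPM to 0.6 and 0.436 CPM and then 0.326 and 0.24 CPM, changed by -2.37 ± 0.28 and -3.27 ± 0.30.

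REs of the receptor gene and of S100B were also lower at 3 h. ERBB3 +1.6 kb had 25.4 and 12.8 CPM with vehicle, 6.13 and 3.39 CPM at 3 h and 3.01 and 2.32 CPM at 24 h. The log2 fold changes were -2.05 ± 0.14 (edgeR adjusted p = 7.9e-09) and -2.85 ± 0.15. S100B -17.5 kb went from 22.4 and 23.7 CPM to 5.55 and 6.86 CPM and then 2.7 and 5.25 CPM, with -1.97 ± 0.15 (edgeR adjusted p = 3e-08) and -2.64 ± 0.16. S100B -16.7 kb and FOXD3 -44.8 kb were lower as well, with -1.76 ± 0.26 and -1.09 ± 0.16 at 3 h and -2.67 ± 0.28 and -1.48 ± 0.16 at 24 h. SOX10 -14.2, +85.6 and -99.9 kb changed by -1.39, -1.89 and -1.49 at 3 h and by -2.11, -1.78 and -1.67 at 24 h. In 10 of the 11 lead REs the change was more negative at 24 h than at 3 h, SOX10 +85.6 kb being the exception. These differences between the times were not tested.

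S100B +1.7 kb was the lead RE that missed the threshold at 3 h, with 2.01 and 2.52 CPM in vehicle and 1.4 and 1.68 CPM at 3 h. The log2 fold change was -0.62 ± 0.21 (edgeR adjusted p = 0.094), and at 24 h it was -1.36 ± 0.22 (adjusted p = 0.00023) with 0.744 and 1.11 CPM. The other S100B promoter RE, S100B -0.1 kb, went from 2.79 and 4.98 CPM to 1.35 and 2.67 CPM at 3 h (-1.01 ± 0.19, edgeR adjusted p = 0.0011). It was the only one of the 9 promoter REs called at 3 h, and it had 2.05 and 3.0 CPM at 24 h (-0.65 ± 0.18, adjusted p = 0.02, called in 4 of 8 alternatives). The SOX10 promoter RE had -0.16 ± 0.25 at 3 h and 0.23 ± 0.24 at 24 h, and the SOX8 promoter RE 0.03 ± 0.12 and 0.12 ± 0.12. ERBB3 -0.6 kb, lower at 48 h, had -0.04 ± 0.10 and 0.02 ± 0.10. The 3 REs higher at 3 h were SOX8 -54.2 kb with 0.34 ± 0.10 (edgeR adjusted p = 0.036, called in only 2 of 8 alternatives), SOX10 +74.5 kb with 0.36 and ERBB3 -66.5 kb with 0.35. The last 2 lie outside the rule for named REs and were named after their values were seen.

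**Figure D4:**
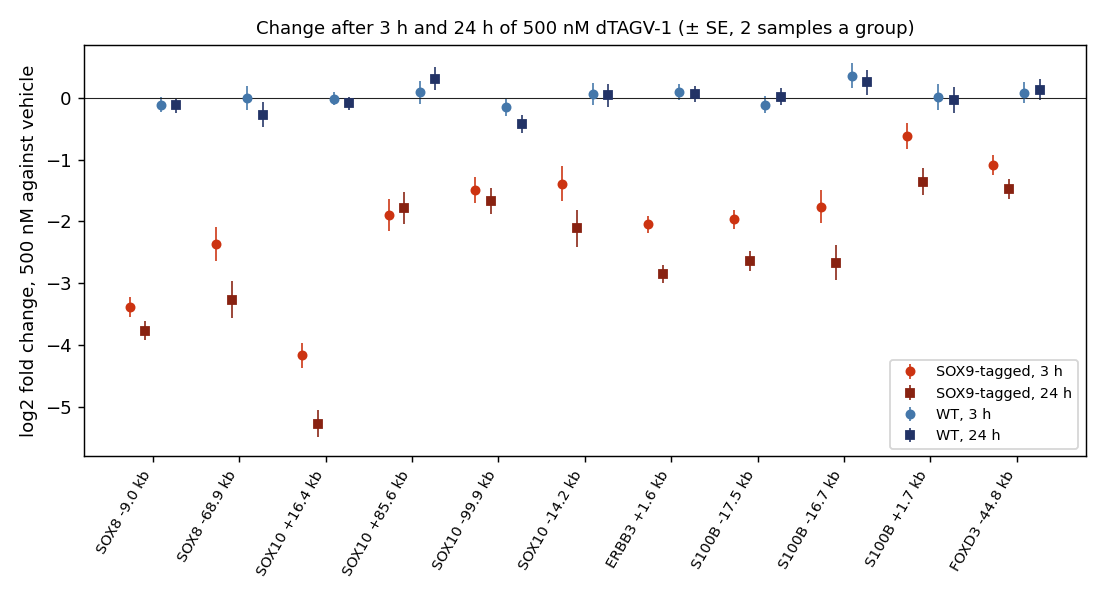
Log2 fold change (± SE, 2 samples per group) of the 11 lead REs after 3 h (circles) and 24 h (squares) of 500 nM dTAGV-1 against vehicle, in SOX9-tagged (red) and WT (blue) cells. SOX9-tagged values reach -4.17 and -5.28 at SOX10 +16.4 kb, and all WT values lie between -0.42 and 0.36.

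WT cells received the same dTAGV-1 without having a tag. At 3 h and at 24 h edgeR called 0 of the 113 REs in WT cells and 0% of all REs, DESeq2 called 0 at both times, and 3 and 4 members had an unadjusted p-value under 0.05 (2.41% and 3.06% of all REs). SOX10 +16.4 kb had 43.1 and 34.1 CPM with vehicle, 41.6 and 34.2 CPM at 3 h and 40.8 and 31.5 CPM at 24 h in WT cells. Log2 fold changes of the 11 lead REs in WT cells lay between -0.15 and 0.36 at 3 h and between -0.42 and 0.31 at 24 h. The difference between the genotypes was tested as an interaction. At 3 h 12 member REs fell more in SOX9-tagged than in WT cells and 0 less (5.13% and 0.072% of all REs, 5.2% in either direction), and at 24 h also 12 and 0 (6.28% and 0.45%, 6.73% in either direction). The interaction was called for 10 of the 11 lead REs at 3 h and for all 11 at 24 h. Here too the share among all REs with a like fall at 48 h was not computed. The calls of SOX10 -99.9 kb at both times and of S100B +1.7 kb at 24 h held in 5 of 8 alternatives, and that of SOX10 -14.2 kb at 3 h in 6. The difference was -4.16 ± 0.23 at 3 h for SOX10 +16.4 kb (edgeR adjusted p = 1.9e-10) and -3.29 ± 0.20 for SOX8 -9.0 kb (adjusted p = 4.1e-10). For ERBB3 +1.6 kb it was -2.16 ± 0.19 (edgeR adjusted p = 5.5e-08), and for S100B -17.5 kb -1.87 ± 0.22 (adjusted p = 3.1e-06).

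After 48 h at 500 nM in WT cells 0 member REs were lower and 1 higher (0.145% and 0.158% of all REs). The RE was SOX8 -9.0 kb, with 13 and 21.8 CPM without dTAGV-1 and 17.9 and 25.1 CPM with it, which is 0.32 ± 0.08 on the log2 scale (edgeR adjusted p = 0.042). The call was lost with DESeq2, without the batch term, and without either of the 2 replicates. SOX10 +16.4 kb went from 14 and 18.2 to 19.5 and 20.2 CPM (0.30 ± 0.08, edgeR adjusted p = 0.075) and was not called. All changes of the lead REs in WT cells at 48 h lay between -0.13 and 0.32.

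Untreated SOX9-tagged samples were set against untreated WT samples within the 3 differentiation batches that held both genotypes. R4 and R5 gave the vehicle samples of 24 h, and R8 the samples of 48 h at 0 nM. The tagged cells are edited clones and the WT cells are not, so the tag, the editing and the clone cannot be told apart. Of the 113 REs 3 were lower in SOX9-tagged cells and 0 higher (0.429% and 0.521% of all REs), and without R4 6 were lower. SOX8 -68.9 kb had 3.75, 1.65 and 3.12 CPM in SOX9-tagged cells of R4, R5 and R8 and 6.05, 3.57 and 6.52 CPM in WT cells, a log2 difference of -0.92 ± 0.14 (edgeR adjusted p = 0.0021). The tagged sample was lower in each batch, and the call held in 6 of 7 alternatives. SOX10 -89.8 kb was at 0.835, 1.13 and 1.19 CPM against 2.02, 1.81 and 2.1 CPM, a difference of -0.90 ± 0.19 (edgeR adjusted p = 0.025), which held in 4 of 7. SOX8 -70.4 kb was at 4.98, 4.03 and 6.18 CPM against 6.45, 6.22 and 9.32 CPM (-0.51 ± 0.12, edgeR adjusted p = 0.042) and held in 3 of 7. SOX10 +16.4 kb, SOX8 -9.0 kb, ERBB3 +1.6 kb and S100B -17.5 kb were not called, with -0.39 ± 0.13, -0.11 ± 0.13, -0.23 ± 0.11 and 0.23 ± 0.13.

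The neighbourhood of other crest and glial genes was read from a list of 20 genes, which included the receptors ERBB2 and NGFR, the ligands NRG1 and ARTN, and myelin genes such as PMP22 and MBP. Their windows held 449 REs, of which 67 (14.9%) were lower and 37 higher at 500 nM and 48 h. Over all REs these shares were 13.9% and 10.2%. At 3 h 38 of the 449 were lower and 4 higher. The median log2 fold change of these REs was 0.01 at 48 h and 0.03 at 3 h, and the percentage lower at 3 h was 8.46%, near that over all REs. The loci differed. Of 37 REs at NGFR, the low-affinity neurotrophin receptor, 11 were lower and 0 higher at 48 h. At MBP, the myelin basic protein gene, 1 of 32 was lower and 10 higher. At PMP22, the gene of a peripheral myelin protein, 0 of 11 REs were called at 48 h and 0 were lower at 3 h. In WT cells after 48 h 1 of the 449 REs was lower and 0 higher.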

How the data were processed

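ATAC-seq was analysed in 58 samples of H9-derived CNCCs. The deposited table holds counts: whole reads per RE and sample in 151457 REs, with no normalization. According to the study's methods and the submitters' processing notes, the authors aligned reads to hg38 with Bowtie2 2.4.1, removed duplicates and reads of low mapping quality with SAMtools 1.10, called peaks with MACS2 2.2.7.1 and counted all samples in a single merged set of REs, so differences between samples do not come from peak calling in single samples. The REs had to be reproducible, and regions open in few samples are missing from the table.

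The members, the pathway list and the comparisons were chosen with earlier results of these data known. Start sites and genes were taken from GENCODE release 44. REs named in the text were all promoter REs of the 5 genes and, per locus, up to 6 REs most strongly lowered and up to 3 most strongly raised at 500 nM, with all REs called at 1.6 nM, between 1.6 and 5 nM, in WT cells or between SOX9-tagged and WT cells, which gave 33 REs. Others are identified as such. Some genes of the pathway list are not reported here by name.

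Counts were tested with edgeR 4.0.16 in R 4.3.3 (TMM, trended dispersion, quasi-likelihood F test, no filter) over all REs, with p-values adjusted over all REs by the Benjamini-Hochberg method and a threshold of 0.05. Fits of the dose series, of WT cells and of each time course carried differentiation batch as a term, and interactions carried genotype by batch. SEs were derived from the F statistic. The script was tested on simulated data. DESeq2 1.42.0, RLE normalization, other blocks, a filter, an exchange of 2 samples with conflicting labels, a 50 kb window and the omission of single replicates were the alternatives. Titles gave the groups. For S9CC13 R14 the concentration labels of 0 and 0.5 nM are exchanged relative to the titles, which were used. The time-course columns of SOX9-tagged R5 name another clone than the titles and were matched by differentiation, treatment and time. Hill curves were fitted to batch-corrected CPM with scipy 1.17.1.

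Samples of one differentiation deviated together: over the dose comparisons the mean correlation of same-named replicates was 0.64 to 0.76 (lowest single pair 0.21), and the titles name the shared clone and batch. The 134 pairs of samples within groups had a lowest reduced chi-square of 2.6 and a median of 15.4, so no sample was a duplicate. All 58 columns were used. Over the table as a whole counting error is the smaller part of the spread, but its part was not worked out for REs with low counts. The batch term takes out differences in level between differentiations of the H9 line. The p-values therefore measure the spread that is left, which is mainly how unevenly a change ran across differentiations and clones. In the dose series batch R6 held both clones, so their difference in level is part of that spread too. The replicate block takes it out.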

Additional observations from a re-analysis of the deposited data

Results flagged for a closer look

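Some single samples stood apart from the other 6 of their group of 7 by Dixon's criterion at 95%, in 9 of 66 groups tested, where chance alone gives about 1 in 20. At S100B -70.9 kb it was S9CC47 R8 both at 0 nM (7.79 CPM, next 3.36) and at 500 nM (6.52 CPM, next 2.97). At SOX8 -68.9 kb it was S9CC47 R5 at 500 nM (0.688 CPM, next 0.495), and at SOX8 -0.6 kb S9CC13 R10 at 500 nM (22.7 CPM, next 15.2). SOX10 +79.2 kb had S9CC13 R10 at 500 nM (8.18 CPM, next 4.17) and SOX10 +1.4 kb had S9CC47 R5 at 0 nM (1.6 CPM, next 1.16). At ERBB3 -0.6 kb S9CC47 R5 was the lowest sample at 500 nM (21.6 CPM, next 29.3), and at ERBB3 +24.5 kb S9CC47 R6 the highest at 500 nM (118 CPM, next 106). FOXD3 -44.8 kb had S9CC13 R6 at 0 nM (5.67 CPM, next 4.14).

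The change on 500 nM dTAGV-1 differed between SOX9-tagged and WT cells by the interaction test of edgeR in 12 named REs at 3 h and in 12 at 24 h. At SOX8 the difference of the log2 fold changes was -3.29 at 3 h and -3.67 at 24 h for -9.0 kb, and -2.38 and -3.03 for -68.9 kb. At SOX10 it was -4.16 and -5.21 for +16.4 kb, -1.99 and -2.11 for +85.6 kb, -1.46 and -2.18 for -14.2 kb, and -1.36 and -1.26 for -99.9 kb. SOX10 -42.4 kb differed at 3 h (-0.87). At ERBB3 +1.6 kb the values were -2.16 and -2.93, and at FOXD3 -44.8 kb -1.17 and -1.63. At S100B they were -1.87 and -2.68 for -17.5 kb, -2.14 and -2.94 for -16.7 kb, and -1.2 and -0.92 for -0.1 kb, while +1.7 kb differed at 24 h (-1.34). The calls of S100B -0.1 kb at 24 h and SOX10 -42.4 kb at 3 h were lost under 5 of 8 alternatives, each held in 3. SOX10 -99.9 kb at both times and S100B +1.7 kb at 24 h held in 5 of 8, and SOX10 -14.2 kb at 3 h in 6. The other calls held in 7 or 8 of 8, the loss being that with no block for batch.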

How the results depend on the processing

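Of 160 alternative values of the counts of called member REs and of the median ED50, 127 stayed within 1.5 times the reported count or within 1 SD, and of 773 values of single named REs, 704 kept direction and side of the threshold, 51 dropped below it and 18 moved by more than their spread (uncalled fold changes and ED50 values). With no block for batch, member calls went to 18 at 500 nM, 13 at 16 nM, 0 at 1.6 nM, 2 between 5 and 16 nM, 0 at 3 h, 2 at 24 h, 2 and 5 for the interactions at 3 h and 24 h, 0 in WT cells at 48 h and 0 between SOX9-tagged and WT cells. Over all REs it left 15104 of 36546 calls at 500 nM, 7717 of 24604 at 16 nM, 2145 of 8052 at 5 nM and 0 of 12633 at 3 h. The replicate block in place of batch gave 6 member calls at 1.6 nM and 7 between 5 and 16 nM, and over all REs 39497 calls at 16 nM, 12921 at 5 nM, 1558 at 1.6 nM (batch term 58), 5032 between 1.6 and 5 nM (2677) and 3481 between 5 and 16 nM (1453). It moved no other count of member calls by over 1.5 times. DESeq2 gave 14 member calls at 24 h, 0 in WT cells at 48 h and 1 between SOX9-tagged and WT cells, and over all REs 13283 of 22160 at 24 h and 358 at 1.6 nM. RLE normalization gave 5 between SOX9-tagged and WT cells. Within 50 kb, which by construction holds fewer REs (60), 14 were called at 500 nM and 9 at 3 h. The median ED50 of 40% was 27.9% on log2(CPM + 0.5), and 37.0 to 41.2% when single replicates were left out. Leaving out each replicate in turn gave 27 to 34 calls at 500 nM, 19 to 31 at 16 nM, 11 to 20 at 5 nM (20 without S9CC47 R6), 0 to 4 at 1.6 nM, 0 to 1 at 0.5 nM (1 without S9CC13 R6), 5 to 13 between 1.6 and 5 nM and 3 to 9 between 5 and 16 nM. The same for the time course gave 11 to 14 at 3 h (11 without SOX9-tagged R4), 11 to 26 at 24 h (11 without SOX9-tagged R4, 13 without R5), 11 to 12 and 10 to 14 for the interactions at 3 h and 24 h, 0 to 0 for WT cells at all times and 2 to 6 between SOX9-tagged and WT cells (6 without R4). In these fits the lone sample left in a group was assumed to vary like the others. REs near 1 CPM, such as the SOX10 promoter, carried SEs of 0.15 or more at 48 h. Changes of that size, and also larger ones short of the adjusted threshold, could have been missed there at this depth. The causes of these shifts were not tested.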

Other observations

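S100B -70.9 kb, the RE with a high S9CC47 R8 sample at 48 h, also differed between differentiations in the time course. It had 5.45 CPM in R4 and 1.44 CPM in R5 in SOX9-tagged vehicle samples and 5.22 and 1.62 CPM in WT vehicle samples, and WT R8 at 48 h had 5.64 CPM. The level thus went with the differentiation in both genotypes in these batches, and the part of batch in the 48 h change of -0.37 ± 0.13 was not tested beyond the batch term of the fit.

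SOX8 -54.2 kb, called higher at 3 h in 2 of 8 alternatives and at 24 h in 5 of 8, likewise varied by batch without dTAGV-1, from 9.21 to 10.8 CPM in S9CC13 R10, R13 and R14 and from 20.3 to 26.7 CPM in the other 4 replicates. The same 3 replicates were the lowest at SOX10 +16.4 kb (3.57 to 7.83 CPM). All 7 replicates were higher at 500 nM than at 0 nM.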
